A study of Mus musculus with 6 samples.

Results

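Zinc finger protein genes with a numbered Zfp symbol were examined in small intestinal organoids treated with MMK-1, a synthetic peptide agonist of the receptor FPR2. The members were the genes listed as protein-coding, named Zfp followed by a number, with a mean FPKM (fragments of a gene scaled to its length and to the total of the library) of at least 1 over the 6 libraries. Of 350 Zfp rows in the table of 21397 genes, 349 were listed as protein-coding and 214 passed this rule. The members were thus chosen by their mean FPKM, and their levels are given as a description. The 3 members just inside the limit had means of 1.03, 1.07 and 1.08, and the 3 Zfp genes just outside had 0.997, 0.989 and 0.955. Among the members, 201 reached a mean of 1 in both groups, 12 were below it in controls only and 1 was below it with MMK-1 only. Of the 135 coding Zfp genes below the limit, 1 was at 0 in every library.

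The organoids were grown from small intestinal crypts of Fpr2f/f mice, which carry floxed Fpr2 alleles in both groups, and no Cre driver is named for these samples. They received MMK-1 or the vehicle, 0.1% DMSO, and were labelled day 5, with 3 libraries in each group. The treatment label gives MMK-1 at 1 mM, while the protocol and the methods of the study give 1 μmol/L. Organoids of several mice were pooled in each sample, and the statistical methods speak of independent experiments in general, without saying for these libraries whether they came from separate cultures, so p-values measure only the spread between these libraries.

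Most Zfp proteins belong to the C2H2 class, in which a pair of cysteines and a pair of histidines hold a zinc ion and fold a short finger that reads a few bases of DNA. Long arrays of fingers arise by duplication, so that genes of this class often lie in clusters of close relatives. Many carry a KRAB domain, which recruits the corepressor TRIM28 and the histone methyltransferase SETDB1 and is best known for silencing retroelements and protecting imprinted loci. The Zfp symbol also covers unrelated proteins, including RNA-binding CCCH proteins and ubiquitin ligases. In the intestinal crypt, a well-known zinc finger regulator is GFI1, which directs secretory progenitors.

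Members with a C2H2 finger motif in the translated GENCODE coding sequence numbered 207, and 191 are assigned to the C2H2 family in the annotation of the table. The median member had 10 fingers and the longest array, that of Zfp142, had 36. A KRAB motif was found in 112 members, with a median of 12 fingers, and not in the other 102, with a median of 7. Of the 112, 90 stood in the KEGG entry for herpes simplex virus 1 infection, which collects KRAB genes. That entry held 97 members in all, so some stood in it without a motif found here, and the motif search may have missed KRAB genes. The gene models differed in base composition: GC content ranged from 34.4% to 68.7% with a median of 44.9%, against 50.1% over all genes tested. The median was 40.7% in members with a KRAB motif and 52.2% in those without. GC content below 40% was seen in 49 members, or 22.9%, and in 4.86% of all genes tested with a gene model.

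Each of the 4 zinc-binding positions can be encoded by a codon ending in T or in C, and the DNA of single fingers shows both. The first finger followed by a further finger at the usual spacing is given for the 4 members in which MMK-1 replicate 3 lay furthest below replicates 1 and 2, all in a cluster on chromosome 17, and for 3 members with a GC content of at least 55% and large rises. The latter 3 were chosen after their values were seen. Capitals mark the codons of the zinc-binding cysteines (TGT or TGC) and histidines (CAT or CAC), and positions are on GRCm38, read 5′ to 3′ on the coding strand.
Zfp758, chr17:22375249-22375311, plus strand: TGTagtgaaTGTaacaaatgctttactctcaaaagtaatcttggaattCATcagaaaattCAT
Zfp942, chr17:21929032-21929094, minus strand: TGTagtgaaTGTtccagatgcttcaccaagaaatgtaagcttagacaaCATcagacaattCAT
Zfp946, chr17:22454996-22455058, plus strand: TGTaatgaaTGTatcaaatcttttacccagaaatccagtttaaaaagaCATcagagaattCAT
Zfp943, chr17:21992478-21992540, plus strand: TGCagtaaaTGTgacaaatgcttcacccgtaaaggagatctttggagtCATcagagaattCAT
Zfp692, chr11:58313983-58314045, plus strand: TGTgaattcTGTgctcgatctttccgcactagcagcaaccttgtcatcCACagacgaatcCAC
Zfp358, chr8:3495885-3495947, plus strand: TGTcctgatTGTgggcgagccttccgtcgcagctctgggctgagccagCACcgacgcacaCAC
Zfp219, chr14:52009420-52009482, minus strand: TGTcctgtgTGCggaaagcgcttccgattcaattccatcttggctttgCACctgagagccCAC

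In the first 4 fingers the histidine codons end in T, and in the other 3 they end in C. The cysteine codons shown do not separate the sets: they end in T except the first of Zfp943 and the second of Zfp219. Over the whole gene, 2.08% to 6.82% of such cysteine and histidine codons ended in C in the 4 genes of the chromosome 17 cluster. The share was 37.5% of 8 codons in Zfp692 and 78.6% of 28 in Zfp219, and 18 of 36 codons ended in C in Zfp358. Among the 187 members with at least 1 finger of strict spacing, this share ranged from 0% to 94.6%, with a median of 23.6% in members with a KRAB motif and 54.4% in those without. It was correlated with the GC content of the gene model (Pearson's r = 0.80 across 187 genes, which are not independent replicates and whose codons are part of the model).

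The libraries held 35512739 to 37537463 fragments, computed from the steps of the FPKM values. Members drew 31 to 9841 fragments per library, with a median of 596. Their median mean FPKM was 3.56, against 9.81 over the 10551 genes tested, and 24 members were at 10 or more. Sequence shared with other genes limits the assignment of fragments: 27 members had over 10% of their windows of 100 bases in a transcript of another gene, and 155 had none. Epithelial and enterocyte markers were abundant in every library, and markers of crypt cell types moved between the groups. Summed FPKM of 5 stem cell markers was 44.3 to 44.8 in controls and 306 to 320 with MMK-1, with all 5 higher in the limma test, and that of 5 proliferation markers was 176 to 178 and 287 to 300, with 5 of 5 higher. Summed FPKM of 4 Paneth markers was 121 to 123 in controls and 546 to 586 with MMK-1 (4 of 4 higher), of 8 enterocyte markers 8368 to 8512 and 5046 to 5448 (7 of 8 lower), of 7 epithelial markers 3566 to 3600 and 2414 to 2601 (4 lower, 2 higher), of 4 goblet markers 1049 to 1105 and 1300 to 1417 (3 higher, 1 lower), and of 4 enteroendocrine markers 143 to 157 and 170 to 186 (2 higher). Summed FPKM of 3 tuft markers was low, at 0.565 to 0.627 in controls and 1.19 to 1.27 with MMK-1, and none of the 3 reached the limit for testing. Leukocyte, fibroblast, endothelial and neural marker sums were 1.04 at most in any library, and Kdr was at 0 in all. In bulk RNA, more cells of a type and more RNA per cell cannot be told apart, and the part of these shifts in the changes of Zfp genes was not tested.

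More Zfp genes were higher than lower in organoids treated with MMK-1. In limma-trend on log2(FPKM + 1), 137 of 214 members, or 64.0%, passed as higher at 0.05 after Benjamini-Hochberg adjustment over the 10551 genes, against 48.5% of all genes tested. The number of lower members was 10, or 4.67%, against 24.7% of all genes tested. The remaining 67 did not pass. The median log2 fold change was 0.29 over members and 0.13 over all genes tested. The groups were free of overlap in 155 members, or 72.4%, against 76.8% of all genes tested. Of the 201 members with a mean of at least 1 in both groups, 127 (63.2%) were higher and 9 (4.48%) lower, whereas the other 13 reached the limit only through the group in which they were high. At a log2 fold change of at least 1 with an unadjusted p up to 0.05, 5 members were higher and 0 were lower on the log2(FPKM + 1) scale, against 3.39% and 3.65% of all genes, and 4 of the 5 reached a mean of 1 in both groups. That scale shrinks the fold of weakly expressed genes, and with limma-voom on the fragments 19 were higher and 1 lower, against 6.89% and 4.74%. The 100 other tested genes assigned to the C2H2 family under other symbols had a median of 0.33, with 64 higher and 14 lower, and a median of 0.08 with 41 higher and 25 lower after the GC correction described below.

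The balance of higher and lower members depended on the scaling between libraries and on GC content. With median-of-ratios scaling, which moved the median of all genes to 0.01, the median of the members was 0.19, and 100 were higher and 25 lower, against 35.9% and 36.3% of all genes. After removal of the trend of each library on GC content, 73 members (34.1%) were higher and 44 (20.6%) lower, against 35.7% and 38.1% of the 10411 genes with a gene model, and the median of the members was 0.05. Without MMK-1 replicate 3, the same correction gave 88 higher and 46 lower members, against 36.1% and 38.8% of all genes. With removal of the trend on gene length, 75 were higher and 32 lower, against 34.6% and 36.4%. Upper-quartile scaling gave 121 higher and 18 lower, against 41.7% and 31.2%. Among the 78 members with a mean FPKM of at least 5, 50 were higher and 2 lower, against 47.1% and 26.4% of the 7306 such genes. The GC removal takes out any difference between the groups that follows GC content, whatever its source. The median was 0.40 with a pseudocount of 0.1 in place of 1, and 0.41 with limma-voom on the fragments, with 137 members higher and 11 lower, against 48.5% and 24.5%.

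The 8 members with the largest rises were ranked on the log2(FPKM + 1) scale, among those that passed and whose groups did not overlap. The ranking depends on that scale. FPKM of Zfp260 (NCBI gene 26466; chr7:30094777-30107622), a transcription factor that cooperates with GATA4 in the heart, was 5.24, 4.54 and 5.04 in controls and 13.7, 13.1 and 10.4 with MMK-1. The groups did not overlap, and the log2 fold change was 1.17 (standard error 0.09, limma adjusted p = 7.01e-06). Zfp367 (chr13:64133018-64153202) had 3.05, 3.41 and 3.00 in controls and 9.74, 9.28 and 6.35 with MMK-1, a log2 fold change of 1.17 (standard error 0.13, limma adjusted p = 5.17e-05). In both genes replicate 3 was the lowest of the MMK-1 libraries and still above every control. Zfp131, a BTB domain protein on chromosome 13, rose from 4.77 ± 0.244 to 10.5 ± 0.553 (SD, n = 3 libraries each), a log2 fold change of 1.00 (limma adjusted p = 7.45e-07), and 0.60 after the GC correction.

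The paralogous corepressors of the NET family, Zfp703 and Zfp503, rose with little spread. Zfp703 (chr8:26977325-26981461) was the second most abundant member, with an FPKM of 32.8, 34.1 and 33.8 in controls and 62.9, 62.6 and 69.9 with MMK-1. Its log2 fold change was 0.93 (standard error 0.05, limma adjusted p = 6.86e-07), and all 3 MMK-1 libraries were far above the controls. Zfp503 had 5.49, 5.98 and 5.30 in controls and 12.9, 12.0 and 11.9 with MMK-1, a log2 fold change of 1.01 (limma adjusted p = 7.87e-07). Both models are GC-rich, at 60.6% and 58.9%, and after the GC correction their log2 fold changes were 0.80 and 0.90.

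Zfp72 had a mean FPKM of 0.285 ± 0.064 in controls and 1.87 ± 0.783 with MMK-1 (SD, n = 3 each), with 37 to 56 fragments per control library, and reached the mean of 1 only through the MMK-1 libraries. On the log2(FPKM + 1) scale, which shrinks folds at so low a level, its log2 fold change was 1.13, and 0.60 after the GC correction. Both are given as a description because the limit selected for a rise. The remaining members with large rises, Zfp758 and Zfp820, are KRAB genes of the chromosome 17 cluster in which the MMK-1 libraries differed among themselves.

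**Figure D1:**
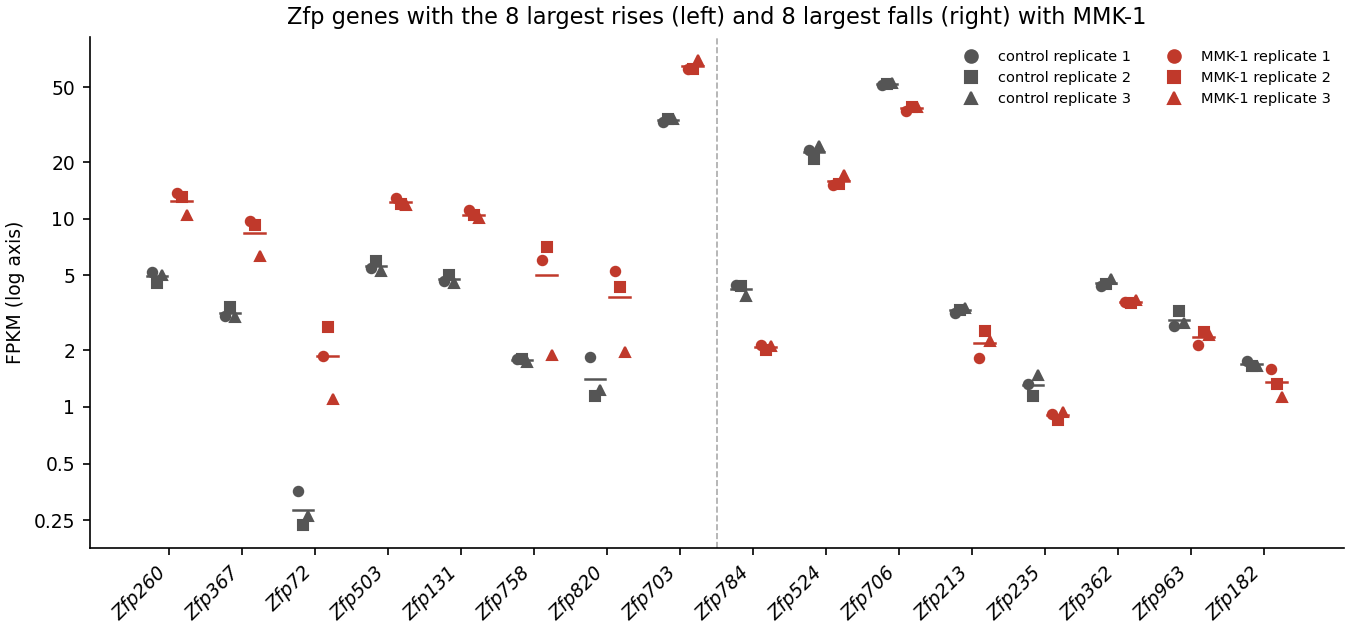
FPKM (log axis) of the 8 Zfp genes with the largest rises and the 8 with the largest falls among members with a limma adjusted p of at most 0.05 and groups that did not overlap; each point is a library, symbols mark replicates, and bars mark the mean of 3 libraries. In Zfp758, MMK-1 replicate 3 was at 1.88 beside 6.04 and 7.12 in the other MMK-1 libraries, while in Zfp703 all MMK-1 libraries were between 62.6 and 69.9.

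The 10 members that passed as lower had log2 fold changes above -1 on the log2(FPKM + 1) scale. Zfp784 (chr7:5034439-5038446) had the largest fall, with an FPKM of 4.45, 4.37 and 3.89 in controls and 2.13, 2.00 and 2.12 with MMK-1. Its log2 fold change was -0.76 (standard error 0.06, limma adjusted p = 6.11e-06), and -1.02 with limma-voom. Zfp524, in the same gene cluster, fell from 22.8 ± 1.89 to 15.9 ± 1.15 (SD, n = 3 each), a log2 fold change of -0.50 (limma adjusted p = 0.000239), although 43.6% of its windows of 100 bases are shared with another gene.
Zfp706, which encodes a protein of 76 residues with 1 finger, had an FPKM of 51.6, 52.4 and 52.7 in controls and 37.3, 39.5 and 39.1 with MMK-1. Its groups did not overlap, and the log2 fold change was -0.43 (standard error 0.04, limma adjusted p = 1.70e-05). Zfp213 and Zfp362 fell by 0.43 and 0.27 on the log2 scale, with limma adjusted p of 0.0015 and 0.0014. Zfp235, at -0.28, reached the limit only through the controls. Zfp784, Zfp524, Zfp706, Zfp213 and Zfp362 were each also lower after the GC correction at a limma adjusted p of at most 0.05. Zfp963 and Zfp182 fell by 0.22 and 0.20, and by 0.45 and 0.63 after the GC correction (limma adjusted p = 0.00078 and 4.97e-05), but with no correction Zfp963 did not pass without control replicate 2 or MMK-1 replicate 1 or with every gene above 0 (limma adjusted p = 0.0836, 0.072 and 0.0653), and Zfp182 did not pass without any 1 of the controls, MMK-1 replicate 2 or MMK-1 replicate 3 or with every gene above 0 or a pseudocount of 0.1 (limma adjusted p from 0.0512 to 0.122).

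The 3 MMK-1 libraries did not change alike. In MMK-1 replicate 3, 103 of 214 members were below both other MMK-1 libraries (23.8% of all genes tested were), and 82 were above both (60.7% of all genes tested). The position of a gene followed its GC content. In the 49 members under 40% GC, the median difference from the control mean on the log2(FPKM + 1) scale was 0.77 in MMK-1 replicate 1, 0.75 in replicate 2 and 0.15 in replicate 3. In the 40 members at 55% GC or more it was 0.16, 0.14 and 0.25. Replicate 3 was below both other MMK-1 libraries in 48 of the 49 members under 40% and in 3 of the 40 members at 55% or more.

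**Figure D2:**
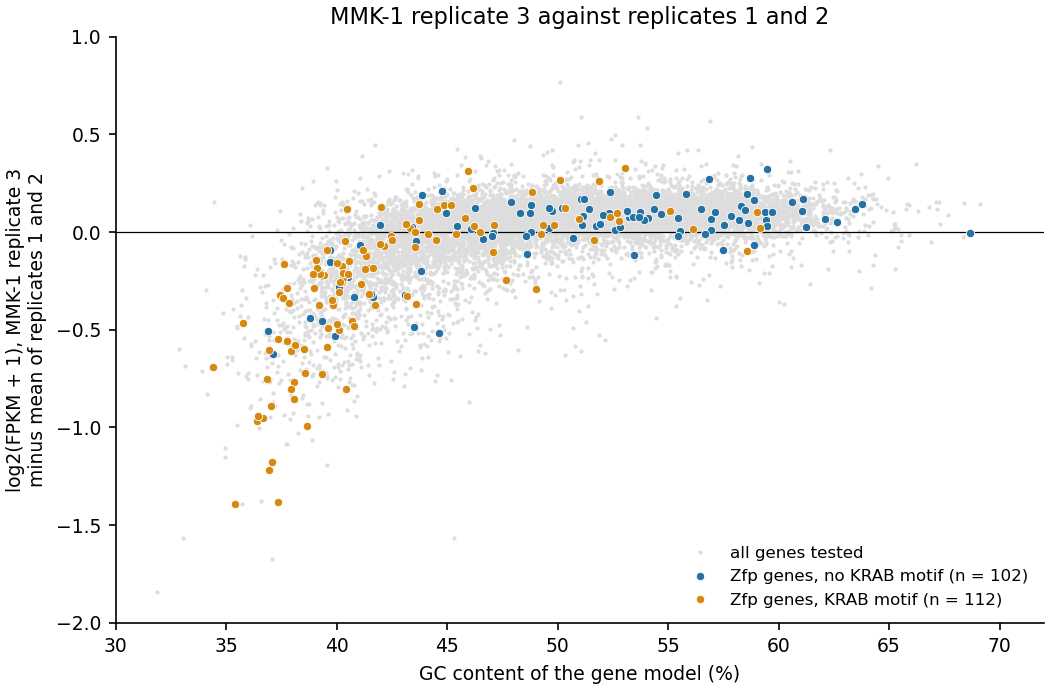
Difference in log2(FPKM + 1) of MMK-1 replicate 3 from the mean of MMK-1 replicates 1 and 2 against the GC content of the gene model (%), for members with and without a KRAB motif and for all genes tested, with 2 genes outside the axes. Members under about 40% GC lie below 0 down to -1.39, and those above 45% lie near 0.

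Across the 214 members, GC content and the difference of replicate 3 from replicates 1 and 2 were correlated with Pearson's r = 0.69, and across 10411 genes with r = 0.54. These are correlations across genes of the same libraries, which share depth and processing, and are given as a description. GC content and the difference of replicate 3 from the control mean gave r = 0.13 across members, whereas GC content and the log2 fold change without replicate 3 gave r = -0.49. Control libraries showed no such spread, with class medians from -0.02 to 0.02.

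**Figure D3:**
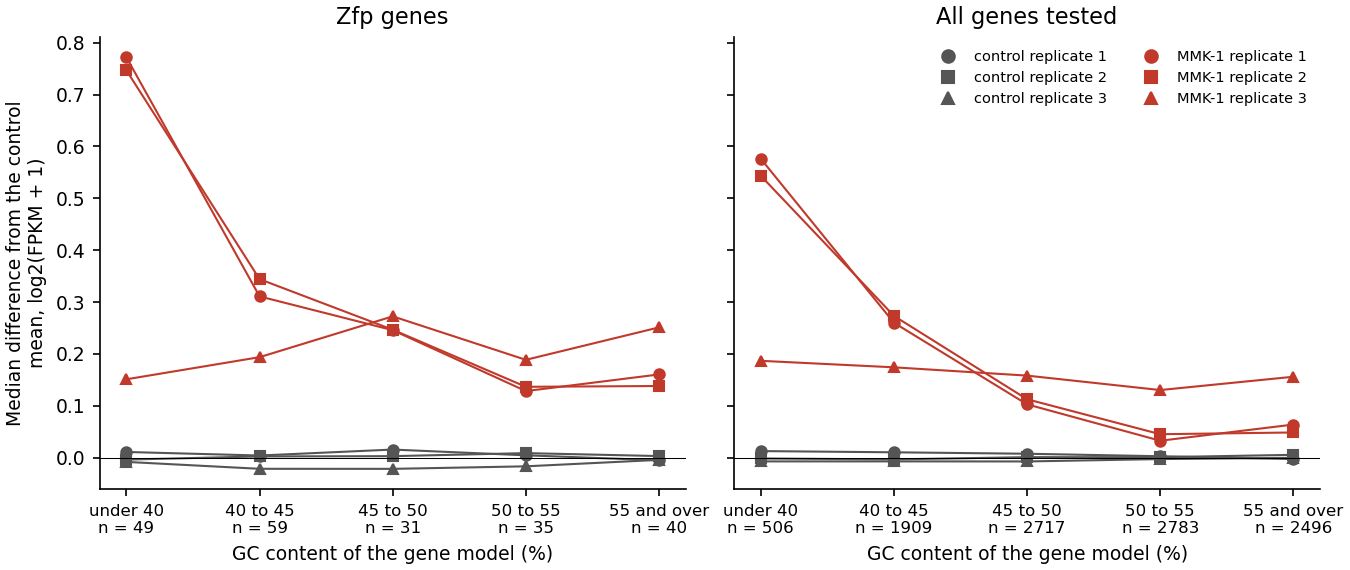
Median difference from the control mean on the log2(FPKM + 1) scale in 5 classes of GC content, for Zfp genes (left) and all genes tested (right), 1 line per library with symbols for replicates. Under 40% GC, MMK-1 replicates 1 and 2 were at 0.77 and 0.75 and replicate 3 at 0.15 for Zfp genes, beside 0.58, 0.54 and 0.19 for all genes tested.

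In each of the 5 classes of GC content the share of higher members was above, and that of lower members below, the share among all genes of the class, and the difference was not tested. Under 40% GC, 36 of 49 members (73.5%) were higher and 1 lower, beside 68.4% and 10.1% of 506 genes. From 45% to 50% GC, 20 of 31 members (64.5%) were higher and 1 lower, beside 48.5% and 25.6% of 2717 genes. At 55% or more, 23 of 40 members (57.5%) were higher and 4 lower, beside 44.2% and 26.6% of 2496 genes. After the GC correction the share of higher members was below that of all genes in the 2 lowest classes (24.5% against 29.4% under 40%, and 28.8% against 33.3% from 40% to 45%) and above it in the other 3. At 55% or more the uncorrected median log2 fold change was 0.18 for members and 0.09 for all genes. Without MMK-1 replicate 3, 145 members were higher and 14 lower, against 49.2% and 27.9% of all genes. At a fold change of at least 2, 15 were then higher instead of 5. The share of all genes at that fold was not computed without this replicate, so the 15 are given as a description.

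The low-GC members with the greatest disagreement were KRAB genes in a cluster on chr17:21008903-22456689 that held 14 members, all with a KRAB motif and with a median GC content of 38.2%. FPKM of Zfp758 was 1.80, 1.79 and 1.74 in controls, and 6.04, 7.12 and 1.88 in MMK-1 replicates 1, 2 and 3. Zfp942 had 9.71, 9.99 and 9.21 in controls and 22.0, 21.0 and 7.65 with MMK-1. Zfp946 had 7.39, 6.80 and 6.93 in controls and 19.2, 17.5 and 7.31 with MMK-1. In all of these, replicates 1 and 2 were well above the controls while replicate 3 was near or below them.
Replicate 3 was below both other MMK-1 libraries in all 14 genes, by 0.16 to 1.39 on the log2(FPKM + 1) scale. The median difference of the cluster from the control mean was 0.79 in replicate 1, 0.78 in replicate 2 and 0.05 in replicate 3. Over all 3 MMK-1 libraries 10 of the 14 passed as higher and 0 as lower, beside 48.5% and 24.7% of all genes. Without replicate 3, 13 passed as higher, beside 49.2% of all genes, and after the GC correction 2 were higher and 2 lower, beside 35.7% and 38.1%. For Zfp758 the log2 fold change of 0.98 (limma adjusted p = 0.0227) became 1.44 without MMK-1 replicate 3 (limma adjusted p = 5.89e-07) and did not pass without MMK-1 replicate 1 or 2 (limma adjusted p = 0.0744 and 0.0743) or without control replicate 2 or 3 (0.0503 and 0.0576), with every gene above 0 (0.101) or with the length correction (0.0573). With the GC correction it was at 0.37 (limma adjusted p = 0.124). Zfp946, at 0.86 (limma adjusted p = 0.022), and 0.33 after the GC correction (limma adjusted p = 0.127), likewise did not pass without MMK-1 replicate 1 or 2 (limma adjusted p = 0.0723 and 0.0741) or control replicate 2 or 3 (0.0539 and 0.0565), with median-of-ratios scaling (0.0615), with every gene above 0 (0.0983) or with the length correction (0.0533). Zfp942 and Zfp943 did not pass with all libraries and passed without MMK-1 replicate 3 (limma adjusted p = 2.76e-07 and 6.02e-06, beside 0.107 and 0.2 with it). Zfp758, Zfp942, Zfp946 and Zfp943 were named because MMK-1 replicate 3 lay furthest below replicates 1 and 2. Their larger changes without that replicate follow from this choice and are given as a description. Sequence shared with other genes was limited in this cluster, at 5.39% of windows or less.

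**Figure D4:**
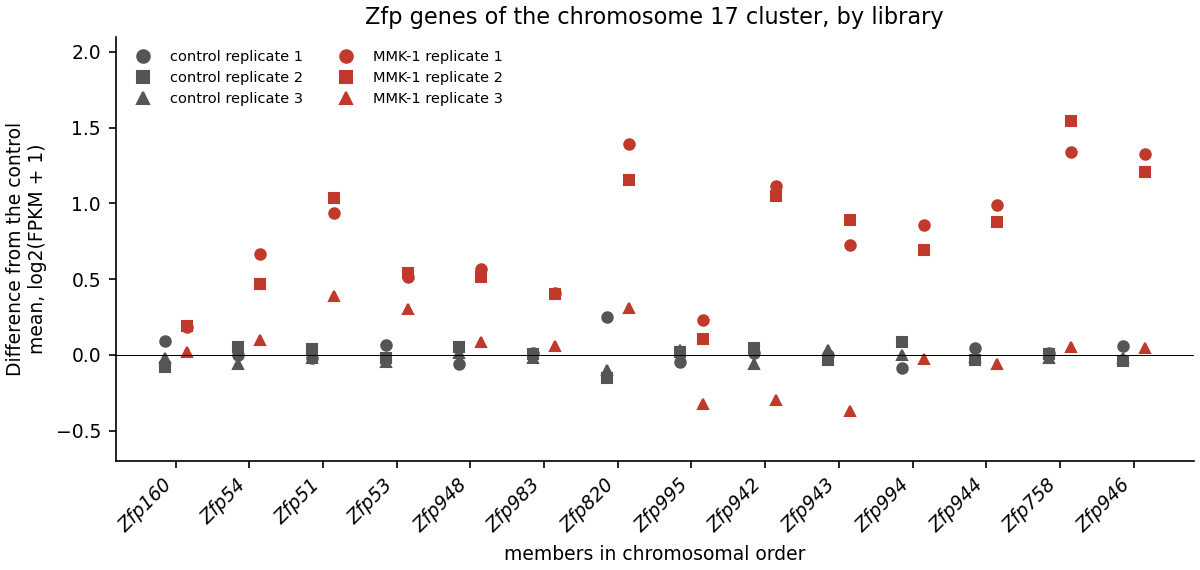
Difference from the control mean on the log2(FPKM + 1) scale for the 14 Zfp genes of the chromosome 17 cluster in chromosomal order, each point a library, with symbols for replicates. MMK-1 replicate 3 is the lowest MMK-1 library in every gene, by up to 1.39 below the mean of the other MMK-1 libraries.

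Replicate 3 was below both other MMK-1 libraries in most members of 4 other clusters, whose median GC contents were 39.1% to 41.5%. On chr13:67069399-67827002, with 10 KRAB members and a median GC content of 39.1%, this was seen in 9, and 7 were higher and 0 lower, but 1 was higher and 3 lower after the GC correction. On chr2:177464733-178078476, with 4 KRAB members and a median GC content of 40.6%, replicate 3 was below both in 4, at a median difference of -0.59 from replicates 1 and 2. There 1 of the 4 was higher with all libraries, 4 were without MMK-1 replicate 3, and 0 were with upper-quartile scaling or after the GC correction, which left 1 lower. A cluster of higher GC content, at a median of 53.7%, lies on chr7:127233061-127885996. Of its 9 members 6 were higher and 0 lower, and 5 were higher and 2 lower after the GC correction, with replicate 3 below both in 0 and at a median difference of 0.08 from replicates 1 and 2. On chr7:4915217-5038446, which holds Zfp784 and Zfp524 at a median GC content of 58.9%, 2 of 5 members were lower and 1 higher. With upper-quartile scaling 3 of the 5 were lower, and after the GC correction 4. Over all genes tested 48.5% were higher and 24.7% lower, 35.7% and 38.1% after the GC correction, 41.7% and 31.2% with upper-quartile scaling, and 49.2% and 27.9% without MMK-1 replicate 3.

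The shares of higher genes among members with and without a KRAB motif depended on the GC correction, on the GC content of the members compared and on MMK-1 replicate 3. Of the 112 with a KRAB motif, 71 (63.4%) were higher and 4 lower, and their median log2 fold change was 0.30. Of the 102 without, 66 (64.7%) were higher and 6 lower, with a median of 0.27, beside 48.5% higher and 24.7% lower of all genes tested. After the correction 21 (18.8%) were higher and 26 (23.2%) lower with a KRAB motif, and 52 (51.0%) higher and 18 (17.6%) lower without, beside 35.7% and 38.1% of all genes. Without MMK-1 replicate 3, 83 (74.1%) with a KRAB motif and 62 (60.8%) without were higher, beside 49.2% of all genes. Among members under 45% GC, 54 of 83 with a KRAB motif (65.1%) and 23 of 25 without (92.0%) were higher before the correction. Of all genes, 68.4% were higher under 40% GC and 58.7% from 40% to 45%. After the correction, 12 of the 83 were higher and 21 lower, while 17 of the 25 were higher and 1 lower. All genes of those classes stood at 29.4% and 33.3% higher and 33.8% and 36.3% lower. The median mean FPKM was 2.63 in the 83 and 5.77 in the 25. At 45% GC or more, 17 of 29 with a KRAB motif (58.6%) and 43 of 77 without (55.8%) were higher. All genes of these classes stood at 42.6% to 48.5%. The difference between these shares was not tested.

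**Figure D5:**
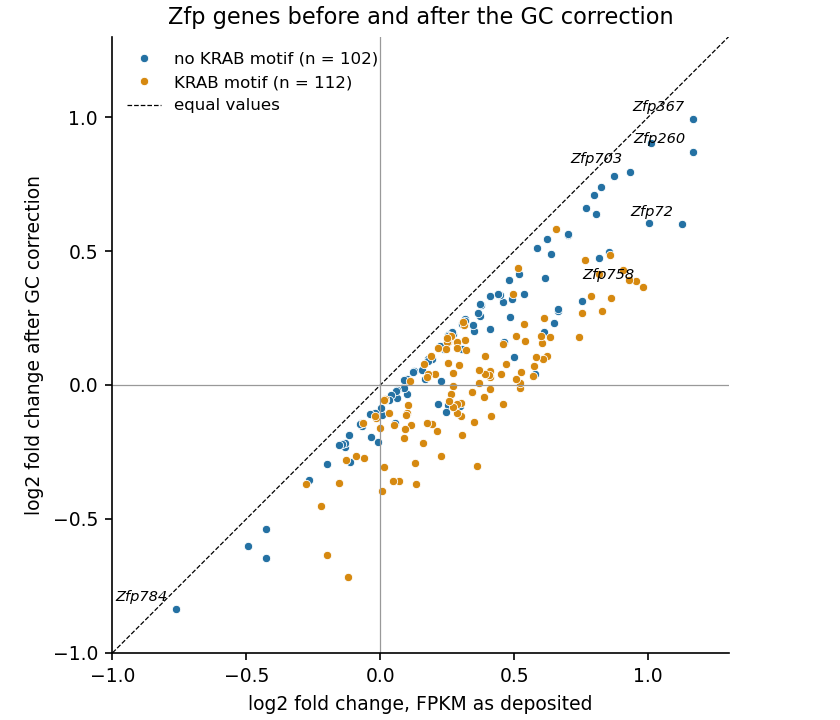
Log2 fold change of the 214 Zfp genes on the log2(FPKM + 1) scale before (horizontal axis) and after (vertical axis) the correction for GC content, with the dashed line marking equal values. Zfp758 moved from 0.98 to 0.37 and Zfp703 from 0.93 to 0.80, and most members with a KRAB motif lie further below the line than those without.

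Among 10 members with roles in RNA and ribosome biology, 5 rose and 1, Zfp706, fell, beside 48.5% higher and 24.7% lower of all genes tested. With upper-quartile scaling 5 were higher and 3 lower, beside 41.7% and 31.2%, and after the GC correction 3 and 3, beside 35.7% and 38.1% of all genes. Zfp36, which encodes tristetraprolin and speeds the decay of mRNAs with AU-rich elements, was the most abundant member. Its FPKM was 60.6, 60.1 and 61.5 in controls and 55.4, 58.1 and 59.7 with MMK-1, so that the groups did not overlap but the log2 fold change of -0.07 did not pass (limma adjusted p = 0.142). It passed as lower without MMK-1 replicate 3, with upper-quartile or median-of-ratios scaling, and with any GC or length correction (log2 fold change from -0.22 to -0.10, limma adjusted p from 0.000618 to 0.0195). Zfp598, the ubiquitin ligase that marks collided ribosomes, had 29.5, 29.3 and 29.1 in controls and 37.4, 37.8 and 39.3 with MMK-1, and rose by 0.37 on the log2 scale (limma adjusted p = 3.70e-05). Zfp106, an RNA-binding protein needed in motor neurons, rose from 16.7 ± 0.0479 to 27.7 ± 0.341 (SD, n = 3 each; log2 fold change 0.70, limma adjusted p = 6.57e-07). Zfp326, which links transcription with splicing, Zfp638, which represses unintegrated retroviral DNA, and Zfp830 rose by 0.61, 0.30 and 0.24 on the log2 scale. After the GC correction Zfp326 was at 0.40, Zfp638 at -0.08 (limma adjusted p = 0.0743) and Zfp830 at 0.14 (limma adjusted p = 0.0808), and the latter pair did not pass with median-of-ratios scaling either (0.101 and 0.129). Zfp622, a factor of large ribosomal subunit assembly, was at -0.14 (limma adjusted p = 0.0542), and passed as lower after the GC correction at -0.22 (limma adjusted p = 0.00168).

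All 8 members of the development and stem cell list rose, and all 8 also passed as higher after the GC correction and without MMK-1 replicate 3, beside 48.5%, 35.7% and 49.2% of all genes. Besides Zfp703 and Zfp503, Zfp292 had an FPKM of 7.11, 6.58 and 6.20 in controls and 13.5, 13.5 and 11.4 with MMK-1, and rose by 0.85 on the log2 scale (limma adjusted p = 1.14e-05), or 0.50 after the GC correction. Zfp148, which binds GC-rich promoter elements, rose from 3.74 ± 0.221 to 6.61 ± 1.51 (SD, n = 3 each; limma adjusted p = 0.00175), with MMK-1 replicate 3 at 4.86 beside 7.47 and 7.49. Its relative Zfp281, a regulator of pluripotency genes, rose by 0.48. Zfp143, an activator bound at many promoters, rose by 0.49, and its highest MMK-1 library was replicate 3, at 7.71. Zfp335, a subunit of histone methyltransferase complexes, and Zfp217, a partner of the CoREST corepressor, rose by 0.45 and 0.30, the latter without passing under the length correction (limma adjusted p = 0.221). Corrected for GC content, Zfp148, Zfp281 and Zfp143 were at 0.28, 0.25 and 0.32. Of the other 5 genes of this list, 4, among them Zfp42 and Zfp423, had means below 0.05, and 1 was not analysed here.

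All 4 members of the cell division and genome stability list rose, beside 48.5% of all genes, and 3 passed as higher after the GC correction, beside 35.7%. The other 2 genes of the list, Zfp365 and Zfp827, had means below the limit, at 0.00434 and 0.748. Zfp207, which loads the checkpoint protein BUB3 onto kinetochores, had an FPKM of 40.5, 41.8 and 39.8 in controls and 58.7, 55.2 and 49.4 with MMK-1, and rose by 0.41 on the log2 scale (limma adjusted p = 0.000343), or 0.21 after the GC correction and 0.26 with median-of-ratios scaling. Zfp91, a ubiquitin ligase of the NF-kappa B pathway, rose by 0.52 (limma adjusted p = 2.31e-05), next to Zfp367 at 1.17. Zfp451, a SUMO ligase, rose by 0.25 (limma adjusted p = 0.00568) and was at -0.08 after the GC correction (limma adjusted p = 0.313) and did not pass with median-of-ratios scaling (0.068).

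Of 6 members that act in chromatin complexes, 3 rose and 0 fell, beside 48.5% and 24.7% of all genes. With upper-quartile scaling, after the GC correction or without MMK-1 replicate 3, 2 of the 6 (33.3%) were higher, beside 41.7%, 35.7% and 49.2% of all genes. Zfp219 had an FPKM of 3.55, 3.64 and 3.60 in controls and 6.83, 6.96 and 7.27 with MMK-1, a log2 fold change of 0.80 (limma adjusted p = 1.06e-06), and 0.64 after the GC correction. The other GC-rich genes whose fingers are shown above, which like Zfp219 were chosen for their rises, were at 0.87 (Zfp692) and 0.82 (Zfp358), beside a median of 0.18 over the 40 members at 55% GC or more. Zfp644, a partner of the methyltransferases G9a and GLP, rose by 0.46, or 0.16 after the GC correction. Zfp687 rose by 0.18 (limma adjusted p = 0.0273), which did not pass without MMK-1 replicate 2 or 3, without control replicate 2 or 3, with every gene above 0, under either other scaling or with the GC correction (limma adjusted p from 0.0542 to 0.365).

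Of 7 members known for imprinting or retroelement silencing, all with a KRAB motif, 5 rose and 0 fell, beside 48.5% and 24.7% of all genes. With the GC correction 0 passed as higher and 2 as lower, beside 35.7% and 38.1% of all genes. Zfp445, which protects imprints together with Zfp57, had an FPKM of 10.2, 10.7 and 10.1 in controls and 12.9, 12.7 and 13.0 with MMK-1, and rose by 0.29 (limma adjusted p = 0.000274). After the GC correction it was at 0.07 (limma adjusted p = 0.151). Zfp809, which silences murine leukaemia viruses, rose by 0.20, and Zfp961 and Zfp266 by 0.39 and 0.47, and after the GC correction these were at 0.04, 0.11 and 0.08, and Zfp809 did not pass with median-of-ratios scaling (limma adjusted p = 0.188). Zfp932, a repressor of endogenous retroviruses, rose by 0.52 (limma adjusted p = 0.00893) before and did not pass after the GC correction (limma adjusted p = 0.929), with MMK-1 replicate 3 at 2.39 beside 3.72 and 4.19, and with 22.1% of its windows shared with another gene. Zfp708, whose windows are all shared, was at 0.30 (limma adjusted p = 0.0788). Zfp568, the repressor of a placental Igf2 promoter, had 4.53, 4.59 and 4.26 in controls and 4.48, 4.57 and 4.66 with MMK-1, and the groups overlapped. Zfp57 itself had a mean FPKM of 0.00318, Zfp30 and Zfp37 were below the limit at 0.0819 and 0.22, and 2 further genes of the list were not analysed here.

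Most genes that act together with or downstream of KRAB domains were higher with MMK-1. Of 29 genes listed as corepressor components, all were tested, 25 (86.2%) were higher and 1 was lower, against 48.5% and 24.7% of all genes, with a median log2 fold change of 0.43. After the GC correction 24 were higher and 3 lower, against 35.7% and 38.1%. FPKM of Trim28, the scaffold that KRAB domains bind, was 61.9, 65.3 and 61.4 in controls and 102, 102 and 111 with MMK-1, a log2 fold change of 0.73 (standard error 0.05, limma adjusted p = 2.24e-06). Setdb1, the histone H3 lysine 9 methyltransferase, rose by 0.32 (limma adjusted p = 0.00103). The largest rises were those of the remodeller Atrx at 0.98, the maintenance methyltransferase Dnmt1 at 0.96 and its partner Uhrf1 at 0.95, the latter pair acting at replicating DNA. Corrected for GC content, Dnmt1 and Uhrf1 were at 0.89 and 0.88, Trim28 at 0.61 and Atrx, whose model has a GC content of 39.5%, at 0.58. Chd3, a remodeller of the NuRD complex, fell by 0.39 (limma adjusted p = 0.000115). Daxx and Ehmt2 did not pass, at 0.16 and -0.05.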

How the data were processed

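RNA-seq libraries of 3 control and 3 MMK-1 samples of mouse small intestinal organoids were compared. The authors deposited FPKM values per gene, and the submitters' processing notes name HISAT2, HTSeq, R 3.2.0, DESeq2 and the build mm10 without stating their roles. Whole fragments were recovered from the FPKM steps for 20663 of 20676 genes above 0, within 0.0002 fragments, and the recovery was checked on simulated data. Differences were tested with limma-trend (limma 3.58.1 in R 4.3.3; two-sided) on log2(FPKM + 1) over genes with a mean of at least 1, without a replicate block, and p-values were adjusted over all of them. GC content, coordinates, shared windows and finger and KRAB motifs came from GENCODE vM21 models and translated coding sequences on GRCm38, in place of the RefSeq proteins first planned. GC trends were removed by local regression (span 0.3) of each library. Clusters held at least 4 members with gaps of at most 500 kb. The members and gene lists were chosen with earlier results of these data known. Each gene was placed on 1 list of known roles although it can have others, and the counts by list depend on that placing. Named genes were the 8 largest rises and falls, the highest means, the extremes of MMK-1 replicate 3, and members of the lists of known roles, and not all are given singly. Alternatives covered scaling, low-value filters, the pseudocount, voom on fragments, a replicate block, GC or length correction, and leaving out each library. Python 3.11.15 with numpy 2.4.6, pandas 2.3.3 and matplotlib 3.10.9 was used.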

Additional observations from a re-analysis of the deposited data

How the results depend on the processing

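The count of higher Zfp genes, 137 with limma-trend, fell to 73 with the GC correction, 70 with the GC correction and a replicate block, 88 with the GC correction without MMK-1 replicate 3, and 75 with the length correction, and 50 of the 78 members with a mean FPKM of at least 5 were higher. The count of lower Zfp genes, 10, became 44, 38, 46 and 32 under those corrections, 18 with upper-quartile and 25 with median-of-ratios scaling, and 2 among the 78. All 73 members higher after the GC correction were among the 137. At a fold change of at least 2, the 5 higher members became 3 under either scaling, 17 with a pseudocount of 0.1, 19 with limma-voom, 42 at a fold of 1.5, 2 with the length correction, 0 with the GC correction with or without the block, and 1 with the GC correction without MMK-1 replicate 3. The lower count at that fold, 0, became 1 with limma-voom and 1 at a fold of 1.5. Of all genes, 3.39% were higher and 3.65% lower at a fold of at least 2 with limma-trend, and 6.89% and 4.74% with limma-voom. Such shares were not computed for the other settings or for a fold of 1.5, so those counts are given as a description. The median log2 fold change, 0.29, became 0.19 with median-of-ratios scaling, 0.40 with a pseudocount of 0.1, 0.41 with limma-voom, 0.051 with the GC correction with or without the block, 0.056 with it and without MMK-1 replicate 3, and 0.11 with the length correction. Lower corepressor genes, 1, became 2 with upper-quartile scaling or the length correction and 3 with median-of-ratios scaling or any GC correction. With each library left out in turn, 122 to 145 members were higher, 7 to 14 lower and 3 to 15 higher at a fold of at least 2, with medians from 0.27 to 0.32, and the most were without MMK-1 replicate 3. Over all genes, the shares with a library left out were 44.6% to 49.2% higher and 22.4% to 27.9% lower, and with the GC correction and block 34.9% and 37.0%. Fewer genes entered with a mean FPKM of at least 5, and the cause of the other shifts was not tested.

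With the replicate number as a replicate block, 139 members were higher and 10 lower, against 47.6% and 24.1% of all genes, at a median of 0.29. The correlations of same-numbered libraries' deviations from their group means were 0.025, -0.040 and 0.028. No pairing by number was seen in these values, but with 3 libraries per group they cannot exclude it. The block moved Zfp942 past the threshold (limma adjusted p = 0.0444) and Zfp687 out of it (0.0563).

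For 53 named genes under up to 17 alternatives, direction and call were kept in 778 of the values, 67 lost and 20 gained the call, and 19 changed sign. The sign changed for Zfp943 (-0.11), Zfp638 (-0.078), Zfp451 (-0.076), Zfp568 (-0.10) and Zfp708 (-0.19) with the GC correction, alone or with the block. It changed for Zfp638 (-0.076), Zfp451 (-0.12), Zfp568 (-0.10), Zfp708 (-0.15) and Zfp809 (-0.0089) with the GC correction without MMK-1 replicate 3. It also changed for Zfp687 (-0.037) with the length correction, and for Zfp568 with upper-quartile scaling (-0.037), median-of-ratios scaling (-0.091) and the length correction (-0.18).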
